A study of Homo sapiens with 22 samples.

Results

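Initiation zones are stretches of the genome where replication began early in S phase, and most of them held at least 1 binding site of MTBP. The zones described here are the exceptions. Of the 2473 zones in the authors' list on chromosomes 1 to 22 and X, 450 (18.2%) overlapped no MTBP peak by even 1 bp, and they were chosen on that measured absence. They covered 11.9 of 143.1 Mb of zone, or 8.31% of all zone bases. A second list, of peaks of dimethylated lysine 4 on histone H3 (H3K4me2), split them into 276 zones that held an H3K4me2 peak and 174 that held neither mark. The other 2023 zones had MTBP.

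The cells were DLD-1, established from a human colorectal adenocarcinoma, in which MTBP-mAID/MTBP-WT-FLAG cells (WT) carried 1 degron-tagged and 1 FLAG-tagged allele, MTBP-mAID/MTBP-deltaC-FLAG cells carried a C-terminally truncated FLAG allele, and MTBP-mAID/MTBP-mAID cells had no FLAG tag. The mAID tag is an auxin-inducible degron, and every line carried it on at least 1 allele. CUT&RUN, in which an antibody guides a nuclease to its target, was done with FLAG antibody in each line (3 libraries each), and with antibody to H3K4me2 (2 libraries) and IgG (2 libraries) in WT cells. EdU-seq, which sequences DNA that has taken up a labelled nucleoside, was done on deltaC and WT cells released from G1 into S phase and on G1-arrested WT cells (3 libraries each), with 10 µM EdU for 3 hr. The release was into hydroxyurea and aphidicolin, which hold forks near where they start, so zones that fire later in S phase could be missing. The MTBP list joins peaks named for WT (28971) and for deltaC (877), and the labels do not say whether a line was 1 clone. There were 22 libraries in 8 groups, but each of the 3 lists used here holds pooled values of the authors with none per library. The depth behind them is unknown, zones are not replicates of a condition, and every comparison below is therefore a description with no p-value. The intervals given are exact 95% binomial intervals and cover counting error only.

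MTBP acts with Treslin to turn the loaded but inactive MCM helicase into an active one, by helping CDC45 and GINS to join it. H3K4me2 marks active promoters and enhancers, and early initiation zones often lie in the open chromatin around active genes. Almost every MTBP peak (98.9% of 29848) touched H3K4me2. Choosing zones for the absence of MTBP therefore also favours zones with few or weak H3K4me2 peaks, and the H3K4me2 values below are not independent of the choice.

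Promoters inside these zones show what kind of sequence was left without MTBP. Each sequence below runs 5′ to 3′ on the gene's own strand, from 250 bases before to 50 bases after the start of a RefSeq transcript (GRCh38.p14), with every CG pair in capitals. The first 4 windows overlapped an H3K4me2 peak, and the last 2 overlapped none. LIMK1 codes for a kinase that phosphorylates cofilin, and NSD1 for a histone H3 lysine 36 methyltransferase. NPRL3, a subunit of the GATOR1 complex, and HBM, a globin gene, share 1 zone. TXLNG lies in the zone farthest from MTBP, and KCNJ4, an inwardly rectifying potassium channel, in the highest scoring zone of those with H3K4me2.
LIMK1, chr7:74083554-74083853, plus strand: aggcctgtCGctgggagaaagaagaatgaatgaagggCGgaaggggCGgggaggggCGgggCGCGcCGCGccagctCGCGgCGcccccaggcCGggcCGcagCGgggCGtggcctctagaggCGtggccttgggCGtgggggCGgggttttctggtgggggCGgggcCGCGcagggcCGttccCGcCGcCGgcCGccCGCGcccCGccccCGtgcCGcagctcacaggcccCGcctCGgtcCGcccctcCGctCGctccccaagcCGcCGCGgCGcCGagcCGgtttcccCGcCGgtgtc
NSD1, chr5:177133523-177133822, plus strand: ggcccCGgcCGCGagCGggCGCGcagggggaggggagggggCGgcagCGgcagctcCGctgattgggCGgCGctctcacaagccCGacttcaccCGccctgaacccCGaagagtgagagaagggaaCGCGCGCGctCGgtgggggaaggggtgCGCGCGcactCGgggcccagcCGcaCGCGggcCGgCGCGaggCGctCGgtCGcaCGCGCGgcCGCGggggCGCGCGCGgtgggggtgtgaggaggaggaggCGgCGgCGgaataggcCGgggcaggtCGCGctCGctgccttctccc
NPRL3, chr16:138624-138923, minus strand: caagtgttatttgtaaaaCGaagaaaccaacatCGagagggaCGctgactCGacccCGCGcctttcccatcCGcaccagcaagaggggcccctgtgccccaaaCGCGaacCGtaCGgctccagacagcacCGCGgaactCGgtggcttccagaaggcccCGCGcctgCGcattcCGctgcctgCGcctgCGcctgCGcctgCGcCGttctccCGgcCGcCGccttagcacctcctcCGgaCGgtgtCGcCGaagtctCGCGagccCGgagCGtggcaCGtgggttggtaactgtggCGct
TXLNG, chrX:16786216-16786515, plus strand: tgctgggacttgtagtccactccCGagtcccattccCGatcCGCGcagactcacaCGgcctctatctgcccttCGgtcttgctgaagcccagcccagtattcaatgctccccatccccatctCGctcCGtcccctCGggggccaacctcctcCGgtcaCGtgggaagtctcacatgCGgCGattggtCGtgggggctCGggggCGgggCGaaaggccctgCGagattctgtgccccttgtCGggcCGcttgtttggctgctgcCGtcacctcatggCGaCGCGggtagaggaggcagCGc
HBM, chr16:165728-166027, plus strand: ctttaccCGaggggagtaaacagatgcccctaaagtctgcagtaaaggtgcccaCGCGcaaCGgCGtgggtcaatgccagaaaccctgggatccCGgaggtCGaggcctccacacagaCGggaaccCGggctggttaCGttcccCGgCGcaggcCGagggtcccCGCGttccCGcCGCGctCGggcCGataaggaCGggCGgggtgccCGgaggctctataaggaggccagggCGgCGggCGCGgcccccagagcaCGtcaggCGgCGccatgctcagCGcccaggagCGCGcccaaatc
KCNJ4, chr22:38443979-38444278, minus strand: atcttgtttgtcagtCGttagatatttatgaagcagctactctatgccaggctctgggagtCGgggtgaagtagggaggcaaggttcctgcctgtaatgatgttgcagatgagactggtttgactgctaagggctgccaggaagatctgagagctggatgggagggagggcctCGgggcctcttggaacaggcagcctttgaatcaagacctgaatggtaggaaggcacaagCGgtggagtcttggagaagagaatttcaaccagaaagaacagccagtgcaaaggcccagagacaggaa

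The NSD1 window held 48 CG pairs in its 300 bases, and the LIMK1 window 44. NPRL3 had 36 and TXLNG 25. The H3K4me2 peak over NSD1 had a fold enrichment over background of 50.1, and the one over NPRL3 had 9.86, so windows rich in CG pairs lay under both strong and weak peaks. HBM held 33 CG pairs with no H3K4me2 peak, while KCNJ4 held 4. The nearest MTBP peak was 49617 bp from the LIMK1 window, 60097 bp from NSD1, 61794 bp from KCNJ4, 62529 bp from HBM, 84260 bp from NPRL3 and 561485 bp from TXLNG.

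Across all protein-coding genes, 22132 promoter windows of 15812 genes could be matched to RefSeq's table, out of 19974 genes. A window was placed inside or outside a zone by its transcript start alone, so some windows could cross a zone's edge. By that measure, 269 windows of 207 genes lay in a zone without MTBP. Of those 269, 143 (53.2%) overlapped H3K4me2, against 77.2% of the 3876 windows inside zones with MTBP and 56.6% of the 17987 windows outside zones. Where H3K4me2 was present without MTBP, the windows in zones without MTBP had a median of 32 CG pairs and a GC content of 70.3%, against 28 CG pairs and 69.0% for the 1013 such windows in zones with MTBP. Windows with both marks in zones with MTBP (1978) also had a median of 28 CG pairs. Marked promoters in the zones that lacked MTBP were therefore at least as rich in CG pairs as marked promoters elsewhere. Without either mark, the medians were 9 CG pairs in zones without MTBP (126 windows) and 8 in zones with MTBP (877 windows).

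**Figure D1:**
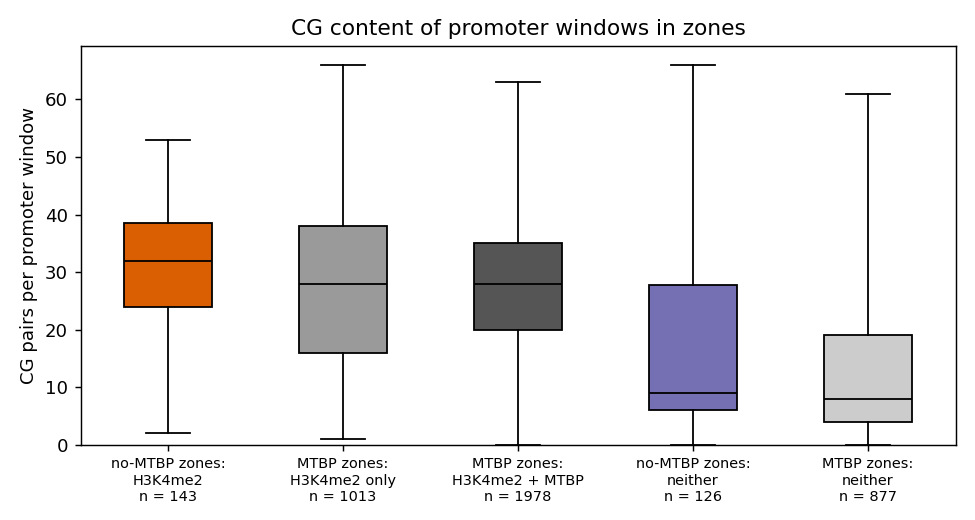
CG pairs per promoter window of 300 bases (vertical axis) for windows inside zones without MTBP and inside zones with MTBP, split by the marks at the window. Windows were placed in zones by their transcript start. Boxes span the quartiles with the median as a line, and whiskers run from the lowest to the highest window. The median was 32 for H3K4me2 windows in zones without MTBP, against 28 in zones with MTBP, and 9 against 8 for windows with neither mark.

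G-quadruplex motifs, here 4 runs of at least 3 G with 1 to 7 bases between runs, or the same in C for the other strand, are sequences often reported near replication origins. At H3K4me2 windows without MTBP, 60.8% of the 143 windows in zones without MTBP held the motif, against 46.3% of the 1013 windows in zones with MTBP. These windows came from 114 and 835 genes, and windows of the same gene can overlap, so they are not separate units. Without either mark, the shares were closer, at 38.9% of 126 windows and 35.9% of 877. The share was 38.5% for windows in zones with MTBP that carried both marks, 37.8% for windows outside zones with H3K4me2 alone, and 30.5% over all windows. The motif's letters overlap with GC content, which was also highest in the first group, and the part of GC content in this was not tested. TATAAA, on either strand, was in 5.58% of windows in zones without MTBP, in 6.04% of windows in zones with MTBP and in 9.46% of all windows. A match of letters is a description, not a site.

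The zones without MTBP were narrow. Their median width was 21.2 kb, against 55.2 kb for zones with MTBP. Zones without MTBP but with H3K4me2 had a median of 29.9 kb (6.47 to 115.5 kb), and those with neither mark 14.6 kb (6.49 to 78.5 kb). In the narrowest of 10 width classes of equal size (width deciles, 6.30 to 14.6 kb), 58.5% of zones had no MTBP. The share was 38.9%, 25.9% and 27.1% in the next 3 deciles, 13.7% in the fifth and 6.88% in the sixth. It was 0.403% (1 of 248 zones) in the widest. The 4 narrowest deciles together held 372 (82.7%) of the 450 zones. A narrower zone offers fewer bases in which a peak can fall, so values marked as at like width below are set against zones with MTBP in the same width decile, and the others are not matched for width.

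**Figure D2:**
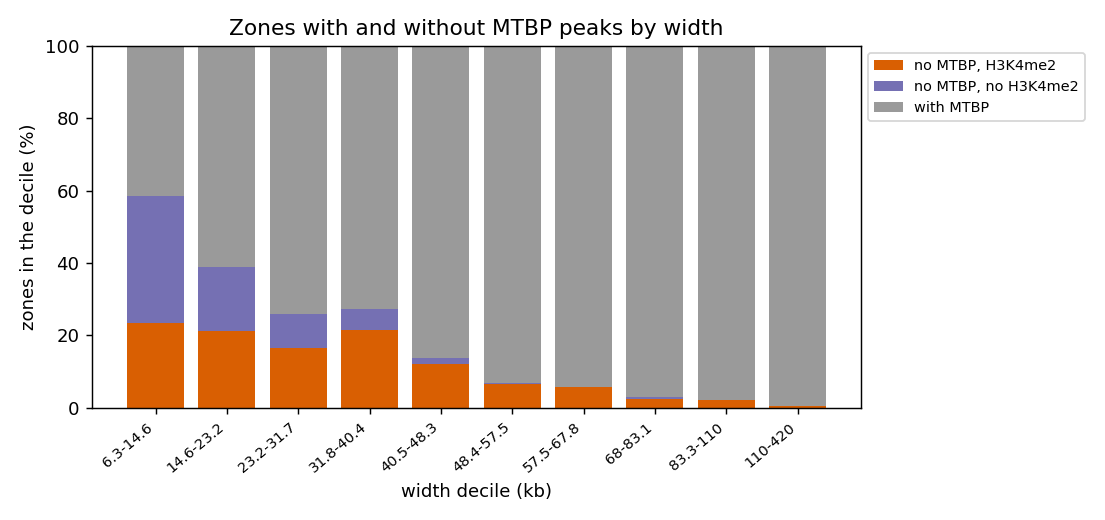
Share of zones (percent, vertical axis) in each width decile (kb, horizontal axis) that had no MTBP but H3K4me2, neither mark, or MTBP. The zones without MTBP made up 58.5% of the narrowest decile and 0.403% of the widest.

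Zones with neither mark were the narrow end of this range. They made up 35.1% of the narrowest decile (87 of 248 zones) and 17.8% of the second, against 1.61% of the fifth. Zones with H3K4me2 alone kept a steadier share, 23.4%, 21.1%, 16.6% and 21.5% of the 4 narrowest deciles, before dropping to 12.1% in the fifth. The 2 kinds thus differed in width as well as in the mark that defined them.

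The authors' zone score, named an average peak score without saying what was averaged, followed width. Across zones the Spearman correlation of width and score was 0.90 in the 450 zones without MTBP and 0.85 in the 2023 with MTBP. It is a description across sites called from the same libraries. The median score was 193.1 without MTBP and 795.3 with MTBP, before width is taken into account. At like width, 288 of 450 zones without MTBP (64.0%, 59.4 to 68.4%) scored below the median of zones with MTBP, against 49.9% of the zones with MTBP themselves. The share was 60.1% (166 of 276) for zones with H3K4me2 and 70.1% (122 of 174) for zones with neither mark. Against zones with MTBP within 10% of their own width, it was 61.6% and 64.4%. Zones without MTBP thus scored somewhat lower for their width, with wide overlap: in the narrowest decile the median was 97.3 without MTBP and 103.1 with MTBP, and in the third 238.6 and 302.8.

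**Figure D3:**
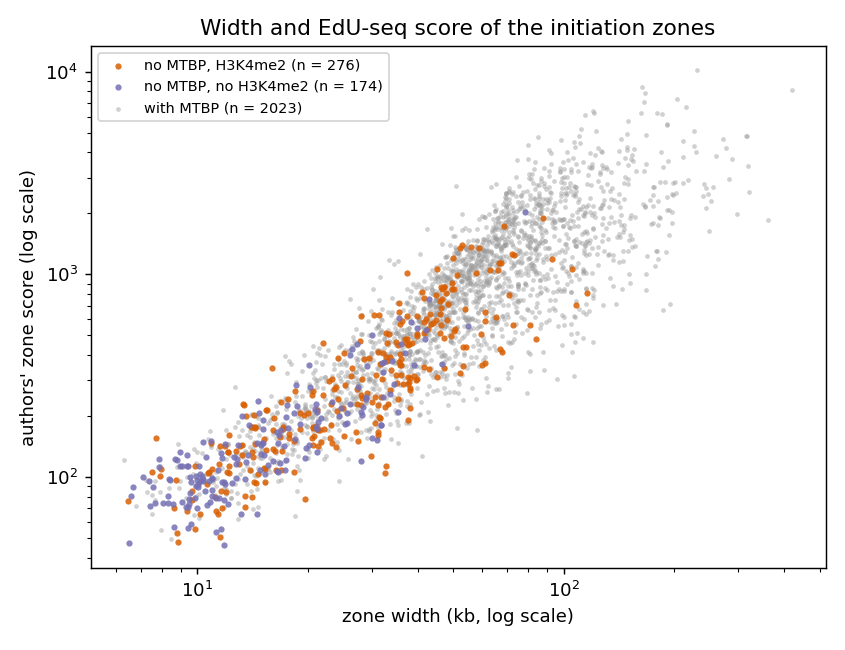
The authors' zone score (vertical log axis) against zone width in kb (horizontal log axis), with 1 point per zone, for 276 zones without MTBP but with H3K4me2, 174 with neither mark and 2023 with MTBP. The 3 groups lie along 1 band, and the zones without MTBP fill its narrow, low scoring end.

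H3K4me2 was sparser and weaker in the 276 zones that had it but lacked MTBP. Of these zones, 137 held 1 H3K4me2 peak, 82 held 2, 34 held 3, 11 held 4, 6 held 5 and 6 held 6. Their median density was 59.5 peaks per Mb, against 79.0 in zones with MTBP, and 220 of 276 (79.7%, 74.5 to 84.3%) were below the median of zones of like width. The strongest H3K4me2 peak in a zone had a median fold of 19.3, against 33.6 in the 2021 zones with MTBP that held H3K4me2, and 228 of 276 (82.6%, 77.6 to 86.9%) were below like width. In 10 of 10 deciles both medians were lower without MTBP. The rule favours this direction, as said above, since MTBP peaks in the list lay at the stronger H3K4me2 peaks.

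**Figure D4:**
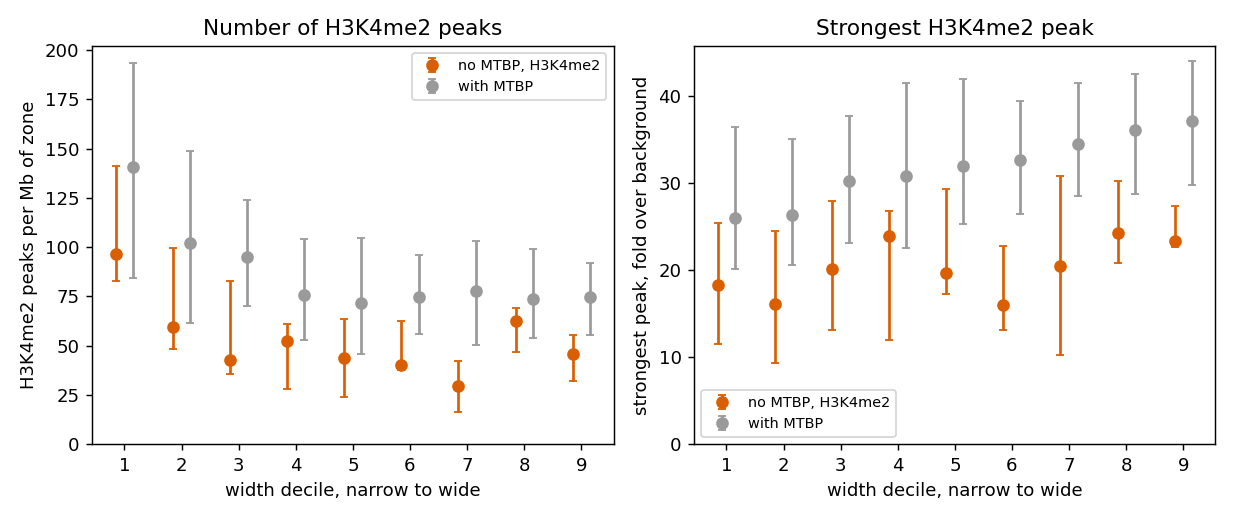
H3K4me2 peaks per Mb of zone (left) and fold over background of the strongest H3K4me2 peak (right) by width decile, for zones without MTBP that held H3K4me2 and for zones with MTBP. Points are medians and bars the quartiles over zones, and the widest decile is left out because it held 1 zone without MTBP. In each of the 9 deciles shown, both medians were lower in zones without MTBP.

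Set against H3K4me2 peaks that also lacked MTBP, the order was the other way. In zones without MTBP, 492 of the 513 H3K4me2 peaks had no MTBP, and the other 21 reached beyond the zone's edge and met an MTBP peak there. The 492 had a median fold of 13.3 and a median width of 1145 bp, against 10.3 and 974 bp for the 4355 such peaks in zones with MTBP. Over all 35206 H3K4me2 peaks without MTBP the medians were 9.35 and 973 bp. The H3K4me2 peaks left without MTBP were thus stronger in these zones than in zones that had MTBP elsewhere, and weaker than the 6143 peaks with MTBP in those zones (23.6 and 2188 bp). A zone without MTBP keeps its strongest peak in the first of these groups by the way it was chosen, whereas a zone with MTBP gives its strongest peaks to the last. Of the 475 H3K4me2 centres in zones without MTBP, 42.5% (38.0 to 47.1%) were in the outermost 20% of the zone's width at the left or at the right end. In zones with MTBP it was 39.3% of 10240, a difference within counting error. An even spread of centres would put 20% at each end.

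The 174 zones with neither mark were seldom far from H3K4me2. Their nearest H3K4me2 peak was a median 5527 bp from the edge, from 6 to 65637 bp, and it lay within 10 kb for 125 of them (71.8%). That nearest peak itself carried MTBP for 93 of 174 zones (53.4%, 45.8 to 61.0%). Over all H3K4me2 peaks the share with MTBP was 43.6%, and in zones with MTBP it was 6143 of 10498 peaks. Those zones were chosen for holding MTBP, which raises the last share. The nearest H3K4me2 peaks outside zones with MTBP were not examined, so whether the 53.4% is particular to zones with neither mark was not tested. Widening the zones by 10 kb for H3K4me2 left 49 zones with neither mark.

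MTBP lay close outside most of these zones. The nearest MTBP peak was a median 14172 bp from the edge, from 15 to 549554 bp, and the nearest peak outside a zone with MTBP was a median 12353 bp away. Within 10 kb of an edge, 182 of 450 zones without MTBP (40.4%, 35.9 to 45.1%) had an MTBP peak, against 44.7% at like width. Within 50 kb the shares were 87.6% and 87.2%. In the 1 Mb on each side there were 51.2 MTBP peaks per 100 H3K4me2 peaks, against 54.7 around zones with MTBP. Within 10 kb the ratio was 55.5, against 62.5. Over the 450 zones together, MTBP peaks were somewhat sparser at each distance than around zones with MTBP. There were 28.6 per Mb against 30.0 within 10 kb, and 18.6 per Mb against 20.6 within 1 Mb. Within 10 kb this held only for zones with H3K4me2 (25.5 per Mb). Zones with neither mark had more, at 33.3 per Mb. These flanks were not matched for width. By the authors' classes, the nearest MTBP peak was at a promoter for 52.7% of the 450 zones, against 34.7% of all MTBP peaks, and its median score was 190 in both. All MTBP peaks include those far from any zone. The classes of peaks nearest to zones with MTBP were not counted, so the promoter share may hold near zones of either kind. No more than 15 zones (3.33%) were over 100 kb from MTBP, 11 of them with H3K4me2.

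Members at the edge of the rule show how fine it is. The 3 zones closest to MTBP without overlap had gaps of 15 bp (chr10:5518867-5531046, with CALML3, a calmodulin-like gene), 35 bp (chr11:123036452-123053824, next to HSPA8, a constitutive heat shock chaperone gene) and 85 bp (chr8:95089632-95100235, inside NDUFAF6). On the other side, the 3 smallest overlaps were 33 bp (chr6:149545864-149565726, with PPIL4), 48 bp (chr12:32656142-32678998) and 71 bp (chr17:32119596-32141799). These 6 zones were 10.6 to 22.9 kb wide.

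Many zones without MTBP lay near another zone. Another zone was within 100 kb of 62.0% of them (279 of 450, 57.3 to 66.5%), against 49.6% at like width. The share was 59.4% with H3K4me2, against 50.6% at like width, and 66.1% with neither mark, against 47.9%. Within 20 kb, it was 30.5% for zones with neither mark (53 of 174), against 17.3% at like width, and 17.8% with H3K4me2, against 16.1%. The nearest zone was wider than the zone itself for 81.6% of zones with neither mark, against 83.5% at like width, and for 69.2% of those with H3K4me2, against 68.6%, so the size of the neighbour did not set them apart from other narrow zones. The neighbour had MTBP for 77.1% of zones without MTBP, against 83.2% at like width. When zones under 20 kb apart were merged, 361 of 2229 zones were without MTBP.

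Zones with neither mark held few gene ends. They were chosen for lacking H3K4me2, a mark of active promoters, and are set against zones with MTBP, of which 2021 of 2023 held H3K4me2, so the choice favours this direction. An end of a protein-coding gene lay in 35.6% of them (62 of 174, 28.5 to 43.2%), against 57.9% at like width, and 47.1% touched no protein-coding gene, against 26.0%. Zones with H3K4me2 held a gene end in 69.2% (191 of 276), against 70.4% at like width, a difference within counting error. A further 17.2% of zones with neither mark lay wholly inside a gene, against 16.1% at like width. Widened by 10 kb on each side, 80.2% of the 450 zones held a gene end, against 77.8% at like width. The lower share found at the edges as given (56.2%, against 65.6%) was thus no longer seen.

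The widest zone without MTBP was chr17:1193226-1308725 (115.5 kb), which holds an end of ABR. It held 6 H3K4me2 peaks. Its score was 809.8, and the 133 zones with MTBP within 10% of its width had a median of 1687.3, and 18 of the 133 scored lower than this zone. The widest decile, up to 420.4 kb, is mostly of wider zones and was not used for it. Another wide zone, chr10:86629401-86734559 (105.2 kb, score 1061.4 against 1691.9 at like width), holds OPN4, which codes for melanopsin, and LDB3, a muscle Z-disc protein gene, and MTBP was 93422 bp away. Both zones scored below the median of zones of similar width.

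Zones with PGF, a growth factor of the VEGF family (chr14:74907317-75000068, 92.8 kb), and with WIPI2, an autophagy gene, and SLC29A4, a monoamine transporter gene (chr7:5220954-5305021, 84.1 kb), also scored below like width, at 1187.0 and 479.2 against 1691.9. So did chr7:74019610-74100379 (80.8 kb, score 561.6 against 1409.2), with ELN, the elastin gene, and LIMK1. That zone held 6 H3K4me2 peaks and ended 1.21 kb from another zone. The exception among the 8 widest with H3K4me2 was chr22:38395981-38483617 (87.6 kb), with KCNJ4, KDELR3, which returns proteins to the endoplasmic reticulum, and DDX17, an RNA helicase gene. It scored 1886.0, above the 1691.9 of its like, with 4 H3K4me2 peaks of up to 27.3-fold.

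The alpha-globin cluster is 1 of these zones. At chr16:125440-198521 (73.1 kb), it holds ends of NPRL3, the globin genes HBZ, HBM, HBA2, HBA1 and HBQ1, and LUC7L, a splicing factor gene. The score was 1244.6, against 1409.2 at like width, with 5 H3K4me2 peaks of up to 19.9-fold, and the nearest MTBP peak was 30035 bp outside. HBA1 and HBA2 are near-identical copies, and reads that fit both cannot be told apart, so a lack of peaks at these genes is uncertain.

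Among zones with neither mark, 1 stood apart. The zone at chr3:185834104-185912639 (78.5 kb) had a score of 2031.6, the highest of all 450, against a median of 1409.2 at like width. It held no annotated gene. It lay between IGF2BP2, which codes for an mRNA-binding protein, 9062 bp away, and TRA2B, a splicing regulator gene, 1919 bp away. The nearest H3K4me2 peak was 7132 bp and the nearest MTBP peak 12793 bp outside. The next highest score of this kind was 759.2, at chr2:218593101-218635897 (42.8 kb), with CNOT9, a subunit of the CCR4-NOT complex, PLCD4, a phospholipase C, and ZNF142, a zinc finger gene, where the like-width median was 635.5. Then followed chr10:119607592-119643116 (score 611.8 against 420.1), between TIAL1, an RNA-binding protein gene, and BAG3, a co-chaperone gene, and chr22:20580635-20618895 (584.1 against 420.1), with MED15, a subunit of Mediator.

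The other widest zones with neither mark scored below their like. They were chr8:42636413-42691102 (54.7 kb, 555.2 against 881.8), between SMIM19 and CHRNB3, a nicotinic receptor subunit gene, chr22:29214833-29261238 (46.4 kb, 360.5 against 635.5), with EMID1 and RHBDD3, and chr4:39780905-39823104 (42.2 kb, 531.5 against 635.5). The last holds ends of UBE2K, a ubiquitin-conjugating enzyme gene, and PDS5A, a cohesin regulator gene. Its nearest H3K4me2 peak was 1988 bp away, but MTBP was 82494 bp away.

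The other high scores with H3K4me2 but no MTBP were in zones with ends of protein-coding genes. The zone with EIF4G3, a translation initiation factor gene, and ECE1, the endothelin-converting enzyme gene (chr1:21159260-21228115), scored 1732.3, against 1409.2 at like width. The zone with GCGR, the glucagon receptor gene, and P4HB, a protein disulfide isomerase gene (chr17:81792012-81844627), scored 1394.4, and that with DNMT3L, AIRE and PFKL, a phosphofructokinase gene (chr21:44253772-44309749), scored 1359.0, both against 881.8. The AIRE zone was 115424 bp from MTBP. The zone with PLEC, which codes for the linker protein plectin (chr8:143966982-144025842), scored 1342.5, against 1115.0, and held 6 H3K4me2 peaks. The 5 highest scores with H3K4me2, KCNJ4's zone included, were thus above like width. They were picked for their scores, and this order is not a result.

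The strongest H3K4me2 peaks in zones without MTBP reached well past the usual fold. A peak of 60.4-fold stood in chr5:14012190-14027511, and an MTBP peak lay 158 bp outside that zone. The zone's edge, not the peak, was 372 bp from DNAH5, an axonemal dynein gene. A peak of 57.4-fold stood in a zone that holds an end of DNAJC27 (chr2:24920602-24944760), and its place within that zone was not compared with the gene. A peak of 50.1-fold stood in the zone of NSD1, FGFR4, a growth factor receptor gene, and ZNF346 (chr5:177078771-177145383). The nearest MTBP peak was 48536 bp outside the NSD1 zone. Zones with 6 H3K4me2 peaks, the most in any zone without MTBP, included those of ABR, LDB3, LIMK1 and PLEC and chr6:3022729-3073004, with RIPK1, a kinase gene of cell death signalling.

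The X chromosome stood out. Of its 38 zones, 22 (57.9%, 40.8 to 73.7%) had no MTBP, against 428 of 2435 autosomal zones (17.6%, 16.1 to 19.2%), or 25.5% of autosomal zones weighted to the widths of the X zones. The autosomes lay between 9.43% (chromosome 9) and 23.5% (chromosome 6). X made up 4.89% of the 450 zones, against 0.832% at like width. The X had few MTBP peaks along its whole length, with 15.8 per 100 H3K4me2 peaks, against 48.7 on the autosomes, and a lower median score, 150 against 190. Its H3K4me2 peaks had a median fold of 13.9, against 14.4. Zone scores were lower too, below the autosomal like-width median for 37 of 38 X zones, and for 21 of the 22 without MTBP against autosomal zones without MTBP. The copy number of X in these cells, and its part in the peaks and scores, was not tested.

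**Figure D5:**
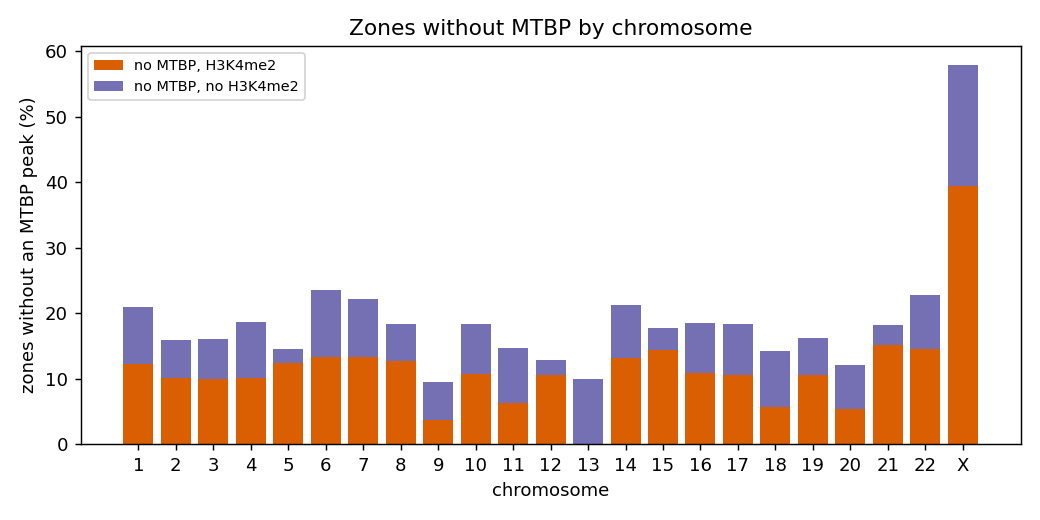
Share of zones without MTBP (percent, vertical axis) on each chromosome (horizontal axis), split into zones with H3K4me2 and zones with neither mark. X reached 57.9% and no autosome passed 23.5%.

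Of the 3 zones farthest from MTBP, 2 were on X. The zone with SYAP1 and TXLNG (chrX:16763161-16798446) was 549554 bp from any MTBP peak, and the zone with DDX3X, an RNA helicase gene (chrX:41356597-41388164), was 271354 bp away. Both held 2 H3K4me2 peaks. Between them in distance came an autosomal zone with neither mark, chr17:62456576-62467176, 290478 bp from MTBP, between METTL2A, a methyltransferase gene, and TLK2, a kinase gene.

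In the order of zones along a chromosome, zones without MTBP came singly and in runs. With 18.2% of all zones lacking MTBP, how many would be single in a random order was not worked out. Their nearest zone had MTBP somewhat less often than at like width (77.1%, against 83.2%). Counting consecutive zones, 263 of the 450 were single, 58 runs held 2, 14 runs held 3, 5 held 4, and 1 held 9. The run of 9 was on X, between positions 129752739 and 154527694. It covered zones with UTP14A, BCORL1, PLXNB3, TKTL1, PLXNA3 and RPL10, a ribosomal protein gene, and 6 of the 9 held H3K4me2. A run of 4 on chromosome 17 ended in 3 zones with neither mark, the last 2 inside MAPT, the tau gene, and KANSL1. Another run of 4, on chromosome 19 (38756080 to 38950840), held the galectin genes LGALS7 and LGALS4, HNRNPL, an RNA-binding protein gene, and SIRT2, a deacetylase gene, and 3 of its zones had neither mark.

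Genes with an end in a zone without MTBP numbered 426 of 19974 protein-coding genes (2.13%), and 4382 had an end in a zone with MTBP. Of the 4763 with an end in any zone, the 426 were 8.94%. Of 28 markers of colorectal epithelium, 1 had an end in a zone without MTBP and 14 in a zone with MTBP. That 1 was LGALS4, an intestinal galectin gene, in a zone of 10.3 kb with neither mark and a score of 97.3. Markers of neurons, muscle, liver and fibroblasts had 0 of 12 each in zones without MTBP, against 2, 1, 2 and 1 in zones with MTBP. Blood markers had 1 of 12, HBA1, against 2 in zones with MTBP. The epithelial markers found in zones thus mostly lay in zones with MTBP, as did most genes found in zones. The lists hold no expression values, so the cell type could not be checked against its markers.

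Every gene family named here had more genes in zones with MTBP, as did all protein-coding genes (4382 against 426), so this direction is not particular to them. Solute carriers had 10 of 386 genes in zones without MTBP and 92 in zones with MTBP, ribosomal proteins 1 (RPL10) of 84 and 28, and zinc finger (ZNF) genes 8 of 517 and 37. Of the genes with an end in any zone, those in zones without MTBP were 8.94% over all protein-coding genes. The share was 18.2% for zinc finger genes, 9.80% for solute carriers and 3.45% for ribosomal proteins. Families thus lay on both sides of the share for all genes, with small counts, and the differences were not tested. Keratins and collagens had 0 genes in zones without MTBP, against 11 and 7 in zones with MTBP. Potassium channels had KCNJ4 and KCNH3, against 8 genes, and the ADAM family ADAMTS14 and ADAM33, against 6. Of 30 replication initiation factors, MCM5, a subunit of the replicative helicase, had an end in a zone without MTBP (chr22:35446522-35461690, 15.2 kb, score 111.0, 1 H3K4me2 peak, MTBP 19475 bp away), and its other end was in a zone with MTBP. Olfactory receptors had 0 of 392, against 3. The highest scoring of the solute carrier zones were those of SLC10A3, on X (1049.7), SLC25A29 and SLC25A47, in 1 zone (758.5), and SLC22A31 (510.8).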

How the data were processed

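Binding of MTBP and H3K4me2 was measured by CUT&RUN and new DNA by EdU-seq, and 3 deposited lists were used. Per the submitters' processing notes, Trim Galore, Bowtie2, MACS2 and HOMER were used, with build hg38. The sources used here give no versions or settings, nor whether replicates were pooled, nor from which EdU-seq libraries zones were drawn. The deposited score of each zone is the authors' average peak score, and the deposited score of MTBP and H3K4me2 peaks has no stated scale. The authors' signal per line at MTBP peaks was not compared here. The deposited fold per H3K4me2 peak is enrichment over background, by its place in the layout, beside deposited −log10 p-values and q-values that were not used.

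Peaks on Y were left out, which left 29848 of 29858 MTBP and 62388 of 62504 H3K4me2 peaks. Overlap was at least 1 bp. Like-width values are shares in zones with MTBP, weighted by the numbers of zones without MTBP in each width decile. Coordinates are printed as in the authors' lists, which do not state whether positions count from 0 or 1. Genes and promoters came from RefSeq's tables for GRCh38.p14, and either gene end counted. The zones and the gene lists were chosen with earlier results of these data known. Zones were named by fixed ranks of width, score, H3K4me2 and distance to MTBP, and genes by lying in them or in the lists. The code was tested on simulated data with Python 3.11.15, pandas 2.3.3 and numpy 2.4.6. Libraries of the controls (untagged, IgG, G1-arrested) were not used here. A few genes and 1 gene list are not reported here.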

Additional observations from a re-analysis of the deposited data

How the results depend on the processing

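The number of zones without MTBP was 858 when only the higher scoring MTBP peaks (median score or above) counted and 268 with zones widened by 10 kb. Zones with neither mark numbered 275 when only H3K4me2 peaks at or above their median score counted and 49 with zones widened by 10 kb for H3K4me2. With the stricter H3K4me2 peaks, 85.9% of zones without MTBP that held H3K4me2 were below the like-width median of H3K4me2 density. MTBP lay within 50 kb of 87.6% of zones without MTBP, against 87.2% at like width, and, counting only the higher scoring MTBP peaks, within 10 kb of 27.3%, against 27.9%. Gene ends lay in 73.3% with all annotated genes, against 78.2%. With zones widened by 10 kb they lay in 80.2%, against 77.8%, so the lower share was no longer seen. Another zone was within 50 kb of 44.2%, against 34.4%, and within 20 kb of 22.7%, against 16.6%. The other 16 alternatives stayed within 1.5 times the count or inside the counting interval. They include 459 zones with WT-named peaks alone, 428 on autosomes, and 62.4% to 68.0% for the score at like width. The distance of 20 kb, the merging of zones and the autosomal values for distance were chosen after seeing the data. No paired analysis was possible because the lists hold no values per library. Depth is unknown, so a zone without a peak may hold MTBP below the caller's threshold.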
